A study of Mus musculus with 16 samples.

Results

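Aminoacyl-tRNA synthetases are the enzymes that load each tRNA with its amino acid. Histidyl-tRNA synthetase (HRS), the Jo-1 antigen, is the member used to induce myositis in this model, and 8 further synthetase genes of the list below encode antigens of the antisynthetase syndrome. The family was selected from the deposited table by gene symbol, as all cytosolic and mitochondrial synthetases together with *Aimp1*, *Aimp2* and *Eef1e1*, the scaffold proteins of the multisynthetase complex. This gave 41 of 26382 genes, and all 41 passed the filter on low values that left 16414 genes for testing. They comprised 19 cytosolic synthetases, 17 mitochondrial synthetases, 2 genes that serve both compartments (*Gars* and *Kars*) and 3 scaffold genes. The rule used gene symbols and no measured value, but it was set with earlier results of these data known.

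Bulk RNA of hamstring muscle from 9 female C57BL/6 mice aged 8 to 10 weeks was sequenced in 16 libraries, with tissue collected on day 14. In 5 mice (m862 to m866), treatment labels gave recombinant HRS at 3 to 5 mg/mL for the left leg (HRS legs, n = 5) and PBS for the right leg (contralateral PBS legs, n = 5). Titles of the left legs name the injected material only as "ma", which no label explains, so that its identity as HRS rests on the treatment label. PBS alone went into either leg of a further 2 animals, m867 and m868, which gave 4 libraries (PBS-only). The remaining 2 mice (m860 and m861) contributed 1 library each from an unstated leg. Their treatment label was the same as that of the HRS legs, but their titles named an MBP fusion protein of the same unexplained "ma" at 2 to 3 mg/mL. They were kept as a separate group, called HRS-MBP here on the treatment label (n = 2), and that the fused protein is HRS is not stated in the titles. The general protocol describes injection of both hamstrings with 50 μL per side, whereas the titles name a treatment for each leg. Titles were followed, so that the contralateral leg is a PBS leg of a mouse that also received HRS. No library of MBP alone is analysed here, and the 4 PBS-only libraries come from 2 animals, so p-values against them partly measure the spread between legs of the same mouse.

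Cytosolic synthetases charge the tRNAs used by ribosomes in the cytosol, and 8 synthetase genes, *Kars* among them, encode parts of a large complex held together by the 3 scaffold proteins. Mitochondrial synthetases are nuclear-encoded, are imported into mitochondria and charge the tRNAs that translate the few mitochondrially encoded proteins of the respiratory chain. When charging falls short, uncharged tRNA activates the kinase GCN2, and the transcription factor ATF4 then raises amino acid transporters, biosynthetic enzymes and several cytosolic synthetases. *Wars*, the tryptophanyl enzyme, is also known as a gene induced by interferon-γ (IFN-γ).

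Depth implied by the step between low values was 8.6 to 73.9 Mreads per library, lowest in a PBS-only library, and the member with the fewest reads in any library still had 24 reads. All libraries expressed skeletal muscle fibre markers abundantly, with a summed level of 37924 to 183010 normalized counts over 8 genes. This sum was 37924 to 157640 in HRS legs, 113240 to 183010 in contralateral PBS legs, 138930 to 172660 in PBS-only legs and 61282 to 62610 in HRS-MBP. Summed macrophage markers ran the other way, at 1119 to 5553 in HRS legs and 122 to 322 in contralateral PBS legs. The HRS leg of m866 stood apart from the other HRS legs, with the highest fibre sum (157640) and the lowest macrophage sum (1119) of that group. On the first principal component (77.3% of variance over tested genes) it lay at 2.84, between the other HRS legs (-123.3 to -65.43) and the contralateral PBS legs (37.9 to 76.46). For HRS legs against contralateral PBS legs, counts of called members and the largest falls are also given without it. In bulk tissue, fewer cells of a type and less RNA per cell cannot be told apart.

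For the immunogen's own gene, HRS legs did not differ from control legs beyond the spread between libraries on the deposited scale. *Hars* (ENSMUSG00000001380.7, GRCm38 chr18:36766528-36783205, minus strand) encodes cytosolic histidyl-tRNA synthetase. Its normalized counts in HRS legs of m862 to m866 were 36.7, 34.0, 35.2, 32.7 and 33.5, and those in the contralateral PBS legs were 36.3, 35.6, 29.2, 32.8 and 32.6. PBS-only legs gave 34.1, 29.5, 33.5 and 27.9, and HRS-MBP gave 31.0 and 36.2. The ranges overlapped between groups, although 2 of the 4 PBS-only libraries lay below every HRS leg. The log2 fold change of HRS legs against contralateral PBS legs was 0.05 ± 0.09 (SE; adjusted p = 0.635, limma with Benjamini-Hochberg adjustment over all tested genes). This depended on scaling: with libraries rescaled to the same total, *Hars* was called higher against contralateral PBS legs (0.46, adjusted p = 0.00657, limma) and against PBS-only legs (0.53, adjusted p = 0.00404, limma), where the median of all tested genes also rose to 0.46 and 0.51. *Hars2* (chr18:36783008-36792562, plus strand), the mitochondrial histidyl enzyme, lies head to head with *Hars*, and their annotated exons share 195 bases on opposite strands. Whether the authors' counting used strand is not stated, so reads in that overlap could have gone to either gene. *Hars2* gave 15.2 to 19.2 normalized counts in HRS legs and 17.2 to 21.7 in contralateral PBS legs, a log2 fold change of -0.26 ± 0.12 that missed the threshold (adjusted p = 0.0647, limma).

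Across the family, 27 of 41 members were lower in HRS legs than in contralateral PBS legs and 0 were higher at an adjusted p below 0.05 (limma), where 25.9% of all tested genes were called lower and 35.1% higher. With mouse as a block in the fit, 10 members were lower and 0 higher, where 16.2% of tested genes were lower and 27.8% higher. Without the block, 29 members were lower and 0 higher at an unadjusted p below 0.05, where 65.4% of tested genes passed in either direction. Fold changes were negative in 39 members, with a median log2 fold change of -0.39 beside 0.08 over all tested genes. Most changes were modest: an absolute log2 fold change above 1 was reached among the called genes by 2 members, *Tarsl2* and *Aimp2*, where 6.27% of tested genes were lower by that much.

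These counts depended on how libraries were scaled. The deposited totals were 726797 to 1162004 in HRS legs and 958741 to 1252358 in contralateral PBS legs, so values were not shares of a common total. The 40 members other than *Lars2* summed to 1389 to 2190 normalized counts in HRS legs and 1797 to 2401 in contralateral PBS legs. *Lars2*, left out of the sum, alone gave 119 to 1488 in HRS legs and 305 to 748 in contralateral PBS legs. As a share of all normalized counts, however, the same sum was 0.177% to 0.191% in HRS legs, 0.183% to 0.192% in contralateral PBS legs, 0.185% to 0.192% in PBS-only legs and 0.187% to 0.189% in HRS-MBP. When each library was rescaled to the same total, 7 members were called lower and 8 higher, where 12.4% of tested genes were lower and 54.9% higher. When mitochondrially encoded genes were left out of that total, 8 members were lower and 5 higher, where 14.2% of tested genes were lower and 51.4% higher. Quantile normalization gave 36 lower and 0 higher (39.6% and 25.3% of tested genes), and median-of-ratios size factors gave 31 lower and 0 higher (31.2% and 31.7%). The median of all tested genes moved with the scaling, from -0.16 under quantile normalization to 0.46 at a common total. Relative to it, the median of the members differed by -0.46 as deposited. A scaling factor per library moves members and other genes alike, so that the common totals and the median-of-ratios factors leave this difference almost as it is by construction. Quantile normalization, which can change it, gave -0.38. The share of the members other than *Lars2* in all normalized counts overlapped between the groups.

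**Figure D1:**
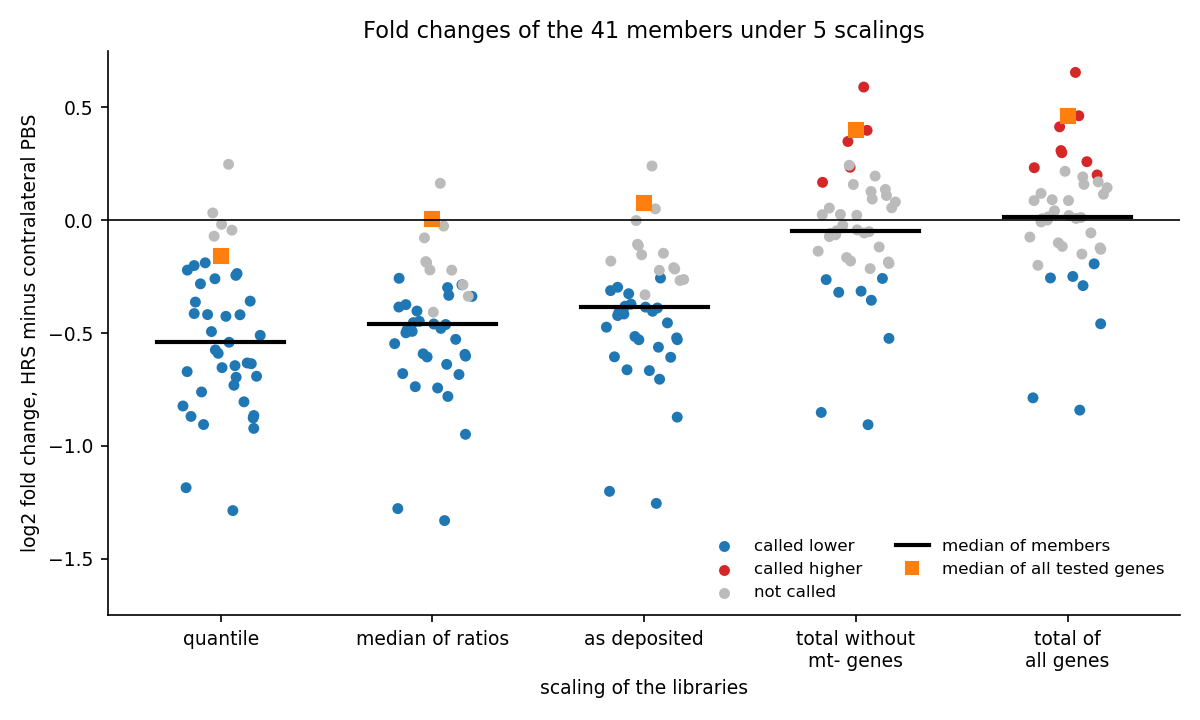
Log2 fold change of HRS legs against contralateral PBS legs for the 41 members under 5 scalings of the libraries, coloured by call at an adjusted p below 0.05, with the median of the members (bar) and of all tested genes (square). The members shift as a block with the scaling, from 36 lower and 0 higher under quantile normalization to 7 lower and 8 higher at a common total. The distance from the bar to the square is fixed almost entirely by construction in all but the quantile scaling, where it is -0.38.

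Under all 5 scalings, 7 members were called lower in HRS legs: *Tarsl2*, *Aimp2*, *Mars1*, *Iars*, *Eprs*, *Aars2* and *Aimp1*. The share of all tested genes called lower under all 5 was not counted. At the common total alone the same 7 were called, where 12.4% of tested genes were lower. No member was called higher in all 5. *Tarsl2* (chr7:65644898-65692091), which encodes a cytosolic threonyl-tRNA synthetase related to the *Tars* enzyme, had 42.4, 31.7, 20.99, 35.5 and 91.5 normalized counts in HRS legs of m862 to m866. The contralateral PBS legs gave 113, 109, 90.7, 98.3 and 67.4, PBS-only legs 110, 111, 94.0 and 104, and HRS-MBP 32.5 and 37.5. The 4 HRS legs of m862 to m865 thus lay below every PBS library, and the HRS leg of m866 lay within the PBS range. The log2 fold change against contralateral PBS legs was -1.25 ± 0.27 (adjusted p = 0.00161, limma), and an exact two-sided permutation of the 10 libraries gave p = 0.0238, where 0.00794 is the smallest this design allows. That permutation ignores the pairing of legs: exact sign flips over the 5 mice gave p = 0.125, where 0.062 is the smallest possible, so this paired test cannot reach 0.05. *Tarsl2* shares 120 exonic bases with *Tm2d3* on the same strand.

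*Aimp2* (chr5:143902704-143909847), a scaffold of the multisynthetase complex, had 53.5, 50.4, 24.5, 43.1 and 120 normalized counts in HRS legs against 128, 141, 108, 117 and 98.4 in the contralateral PBS legs. PBS-only legs gave 123, 142, 119 and 108, and HRS-MBP 47.5 and 56.8. The pattern was that of *Tarsl2*, with m866 alone inside the PBS range. Its log2 fold change was -1.20 ± 0.28 (adjusted p = 0.00235, limma; exact permutation p = 0.0317, exact sign flips over mice p = 0.125). The exons of *Aimp2* share 487 bases, 29.4% of their length, with *Eif2ak1* on the opposite strand, and its level is uncertain to that extent.

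*Mars1* (chr10:127296221-127311786), the methionyl enzyme of the complex, had the smallest adjusted p of the family. HRS legs gave 35.8, 30.9, 29.5, 37.5 and 64.0 normalized counts, and contralateral PBS legs 80.9, 69.2, 66.1, 76.2 and 58.9. PBS-only legs gave 59.2 to 69.2 and HRS-MBP 35.7 and 36.5. The log2 fold change was -0.87 ± 0.17 (adjusted p = 0.000671, limma; exact permutation p = 0.0159, exact sign flips over mice p = 0.125), and 4 of 5 mice had the lower level in the HRS leg. *Eprs*, which encodes the fused glutamyl and prolyl enzyme, had 163, 154, 113, 147 and 244 normalized counts in HRS legs and 298, 303, 223, 262 and 196 in contralateral PBS legs (log2 fold change -0.67 ± 0.17, adjusted p = 0.00398, limma). *Iars*, the isoleucyl enzyme, had 50.2, 39.1, 41.4, 51.4 and 84.7 against 91.9, 90.6, 89.1, 93.1 and 60.1 (-0.70 ± 0.19, adjusted p = 0.00518, limma). For both genes the m866 mouse was the exception, with its HRS leg above its PBS leg.

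**Figure D2:**
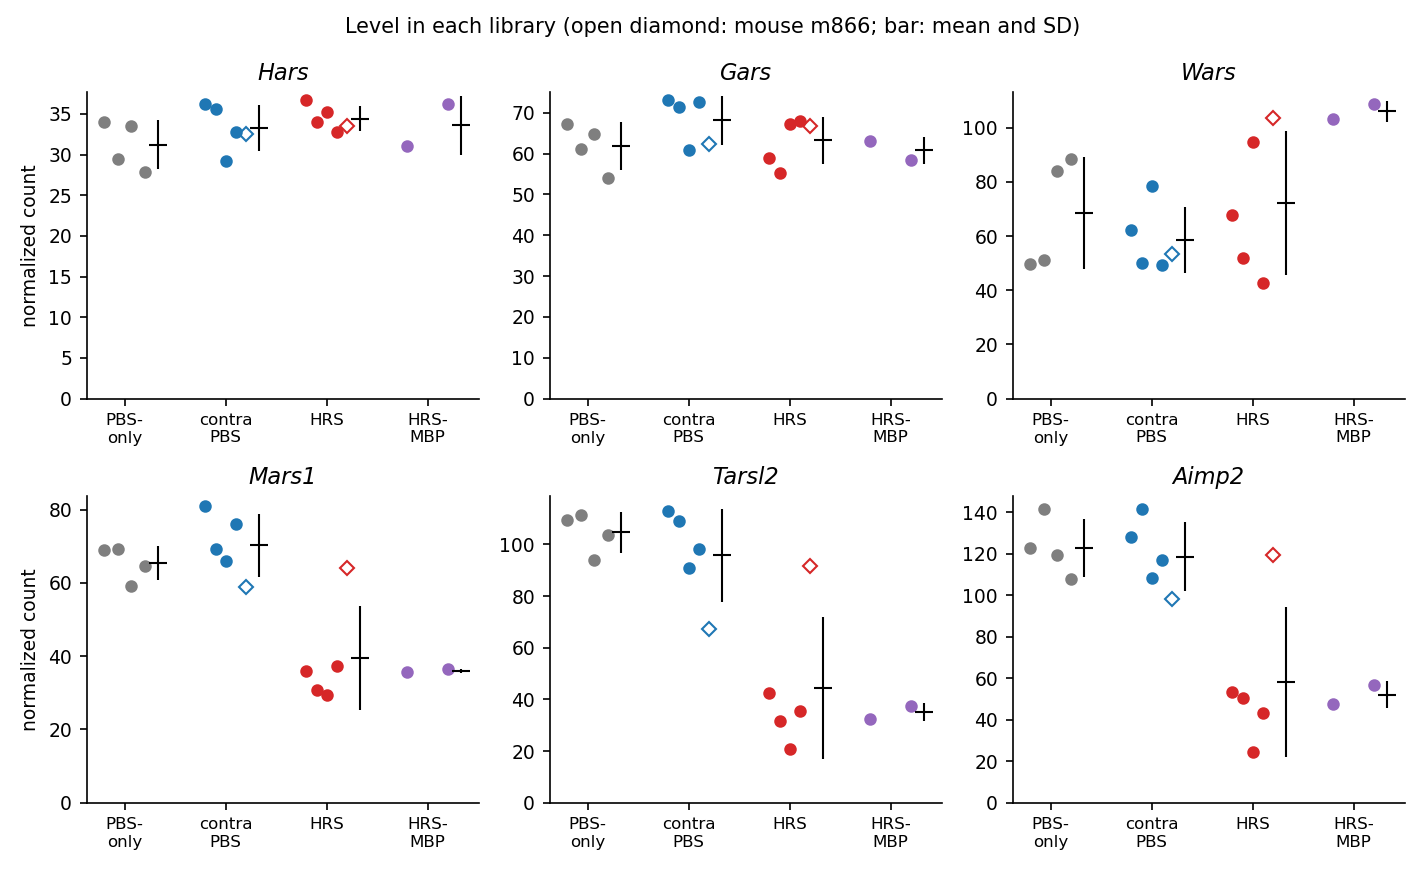
Normalized counts in each of the 16 libraries for 6 members, by group, with the mean and SD as bars and mouse m866 as open diamonds. *Hars* and *Gars* overlap between all groups, *Wars* varies within the HRS and both PBS groups and is high in both HRS-MBP libraries, and *Mars1*, *Tarsl2* and *Aimp2* are low in 4 of 5 HRS legs and in both HRS-MBP libraries.

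By role, 13 of 19 cytosolic synthetases, 10 of 17 mitochondrial synthetases, 1 of 2 genes for both compartments and 3 of 3 scaffold genes were lower in HRS legs, with 0 higher in each, beside 25.9% of tested genes lower. With mouse as a block in the fit these were 4 of 19, 5 of 17, 0 of 2 and 1 of 3, beside 16.2%. All 3 scaffolds of the complex were lower: besides *Aimp2*, *Aimp1* had a log2 fold change of -0.61 (adjusted p = 0.00512, limma) and *Eef1e1* of -0.39 (adjusted p = 0.0261, limma). Of the 8 complex enzymes, 7 were lower (*Mars1*, *Iars*, *Eprs*, *Dars*, *Lars*, *Kars* and *Qars*), and *Rars*, the arginyl enzyme, had a log2 fold change of -0.18 that was not called (adjusted p = 0.164, limma). The block left 2 of the 8 complex enzymes called lower, with *Aimp1* and *Eef1e1* missing the threshold (adjusted p = 0.0601 and 0.0878, limma). Rescaled to a common total, 3 complex enzymes stayed lower and 1 was higher, and 2 scaffolds stayed lower, where 12.4% of tested genes were lower and 54.9% higher.

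**Figure D3:**
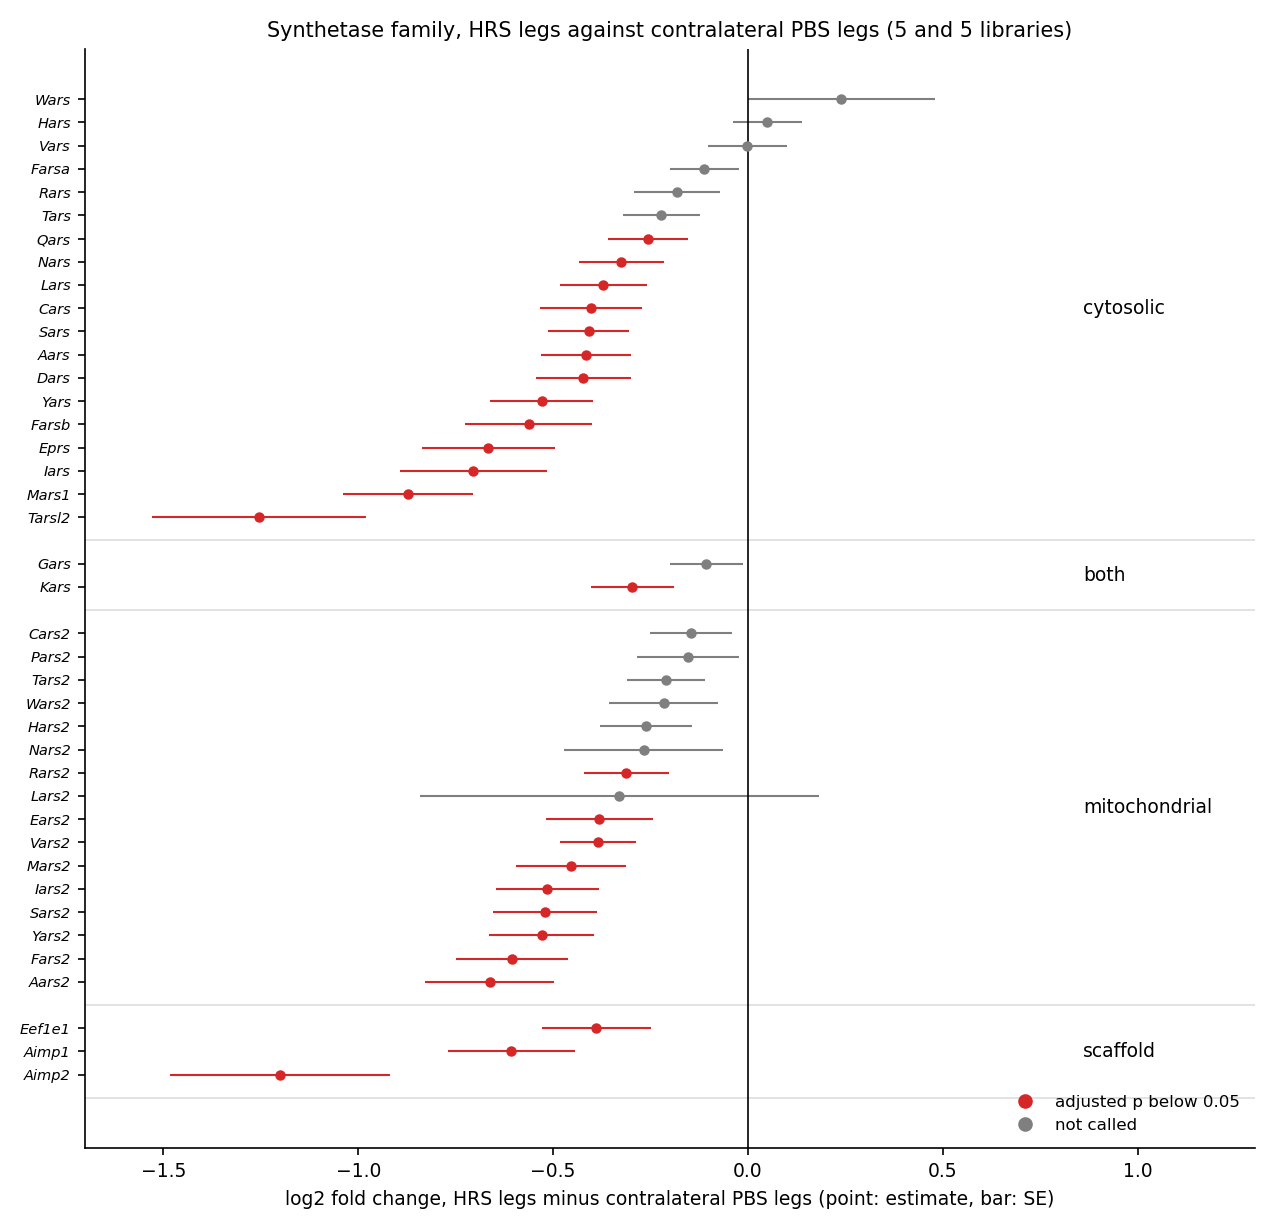
Log2 fold change and SE (limma) of 40 members in HRS legs against contralateral PBS legs, grouped by role and ordered by size, with members at an adjusted p below 0.05 in red. The 26 called members drawn all lie left of 0, with *Tarsl2* and *Aimp2* farthest out, and *Wars*, *Hars* and *Vars* sit at the upper end of the cytosolic group.

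Among the 9 synthetase genes whose products are antigens in antisynthetase syndrome, 5 were lower and 0 higher, beside 25.9% of tested genes lower. With mouse as a block 1 was lower (*Yars*), beside 16.2%. The 5 were *Iars* (log2 fold change -0.70), *Farsb* (-0.56), *Yars* (-0.53), *Aars* (-0.42) and *Nars* (-0.33), which charge isoleucine, phenylalanine, tyrosine, alanine and asparagine. The other 4 were not called, with *Hars* at 0.05, *Gars* (glycine) at -0.11, *Farsa* at -0.11 and *Tars* (threonine) at -0.22 (adjusted p = 0.0639, limma). *Yars* gave 39.0, 32.3, 33.8, 38.2 and 55.8 normalized counts in HRS legs of m862 to m866 and 67.2, 59.3, 52.7, 58.4 and 47.5 in the contralateral PBS legs. *Aars* gave 94.1, 86.4, 87.2, 91.1 and 130 against 138, 129, 134, 137 and 110. *Nars* gave 96.1, 89.6, 93.8, 98.6 and 127 against 146, 134, 115, 132 and 107. In these 3 genes the HRS legs of m862 to m865 lay below all contralateral PBS legs, and only the HRS leg of m866 reached their range. *Gars* gave 58.9, 55.2, 67.4, 67.9 and 66.8 against 73.2, 71.5, 60.9, 72.6 and 62.4, with groups that overlapped. *Tars* gave 42.5, 40.8, 44.1, 44.2 and 52.0 against 62.3, 50.1, 51.0, 53.3 and 45.1, again with m866 alone inside the PBS range. *Farsa* and *Farsb* encode the α and β subunits of the same cytosolic phenylalanyl enzyme. *Farsa* had 24.2 to 30.0 normalized counts in HRS legs and 26.3 to 30.6 in contralateral PBS legs, ranges that overlapped over most of their length. *Farsb* had 25.8 to 54.2 and 42.4 to 56.5, where only the HRS leg of m866 reached the PBS range. On the common total only *Iars* of these 9 remained lower, and *Hars* (log2 fold change 0.46), *Gars* (0.31) and *Farsa* (0.30) were called higher. Of all tested genes, 12.4% were lower and 54.9% higher at that scaling. With median-of-ratios factors *Hars* was at -0.03, and with quantiles at -0.04, so that its direction was not fixed by these data.

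The cytosolic synthetases that were not lower included *Vars* and *Wars*. *Vars*, the valyl enzyme, was almost level between the groups at 66.9 ± 7.32 and 67.0 ± 6.85 normalized counts (SD, n = 5 each). *Wars* (chr12:108860030-108894174) gave 68.0, 52.0, 94.7, 42.8 and 104 in HRS legs of m862 to m866 and 62.3, 50.0, 78.5, 49.3 and 53.4 in their contralateral PBS legs. PBS-only legs gave 49.9 and 51.3 in m867 and 84.2 and 88.4 in m868, and HRS-MBP gave 103 and 109, above every PBS library. The 2 legs of m868 therefore lay above both legs of m867, and the spread among controls was as wide as the difference between HRS and PBS legs. The log2 fold change was 0.24 ± 0.24 against contralateral PBS legs (adjusted p = 0.397, limma), and 0.09 without the HRS leg of m866. For HRS-MBP against PBS-only legs it was 0.68 ± 0.33 (adjusted p = 0.0877, limma). This HRS-MBP difference was called in a fit of only these groups, where 33.4% of tested genes were higher. It was also called at a common total (1.14, adjusted p = 0.00876, limma), where 47.1% were higher. Of 12 other IFN-γ induced genes in the same HRS legs, 11 rose (median log2 fold change 3.05), and *Ido1*, a tryptophan-degrading enzyme, was not called (0.40, adjusted p = 0.499, limma). The chemokine genes *Cxcl9* (log2 fold change 5.31) and *Cxcl10* (5.10) and *Ciita* (3.67), the master regulator of MHC class II genes, rose most. At a common total *Wars* (0.65, adjusted p = 0.0263, limma) and *Vars* (0.41, adjusted p = 0.00456, limma) were called higher, where 54.9% of tested genes were.

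All 17 mitochondrial synthetases had a negative fold change, with a median of -0.38 on the log2 scale beside -0.40 for the cytosolic ones. Under quantile normalization these medians lay further apart, at -0.67 and -0.36. The 10 called members included *Aars2* (log2 fold change -0.66), *Fars2* (-0.61), *Yars2* (-0.53), *Sars2* (-0.52), *Iars2* (-0.52), *Mars2* (-0.45), *Vars2* (-0.39), *Ears2* (-0.38) and *Rars2* (-0.31). Each serves the amino acid of its cytosolic namesake, with *Ears2* for glutamate. *Vars2* was the only member whose 5 HRS legs (12.5 to 16.7 normalized counts) all lay below the 5 contralateral PBS legs (17.2 to 20.55), where 3.19% of tested genes had that separation; its exact permutation p of 0.00794 and its exact sign-flip p of 0.062 over mice are the smallest possible. *Aars2* alone of the mitochondrial enzymes was lower at a common total, and *Cars2* and *Tars2* were called higher. Of all tested genes, 12.4% were lower and 54.9% higher there. *Iars2* shares 2034 exonic bases, 22.9% of its length, with *Rab3gap2* on the opposite strand. Transcripts encoded by mitochondrial DNA made up 3.41% to 11.1% of normalized counts in HRS legs and 9.69% to 11.2% in contralateral PBS legs, and the part of this difference in the mitochondrial synthetases was not tested.

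*Lars2* (chr9:123366927-123462666), the mitochondrial leucyl enzyme, varied more than any other member. HRS legs gave 1488, 571, 215, 119 and 346 normalized counts in m862 to m866, and the contralateral PBS legs 471, 305, 650, 748 and 340. Differences between legs ran in opposite directions, from 1.66 on the log2 scale in m862 to -2.65 in m865. Its log2 fold change of -0.33 ± 0.51 was not called (adjusted p = 0.589, limma).

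For 15 amino acids the table held a cytosolic and a mitochondrial enzyme, and the log2 ratio of these 2 levels was compared within libraries. The ratio was higher in HRS legs than in contralateral PBS legs for 8 amino acids and lower for 7. The largest shifts were for phenylalanine (*Farsa* over *Fars2*, 0.90 ± 0.28 against 0.40 ± 0.12, SD, n = 5 each) and tryptophan (3.68 ± 0.66 against 3.23 ± 0.25). In the other direction it was methionine (*Mars1* over *Mars2*, 1.99 ± 0.25 against 2.41 ± 0.17). PBS-only legs averaged 0.24 for phenylalanine, 3.69 for tryptophan and 2.45 for methionine, so that tryptophan was level between HRS and PBS-only legs. The difference between the mean log2 levels of all cytosolic and all mitochondrial synthetases was 1.66 to 2.01 in HRS legs and 1.75 to 1.93 in contralateral PBS legs. These ranges overlapped, so that as deposited the compartments were not set apart as a whole.

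Per kilobase of annotated exon, the most abundant members in contralateral PBS legs were *Aimp2* (71.8 normalized counts per kilobase) and *Lars2* (45.3), followed by *Nars* (29.1), *Kars* (23.7) and *Gars* (21.8). Cytosolic synthetases had a median of 14.2 per kilobase (5.51 to 29.1) and mitochondrial synthetases of 3.82 (0.944 to 45.3). In HRS legs *Tarsl2* moved from rank 13 to 22 and *Mars1* from rank 6 to 13 among the 41, while *Hars* moved from rank 16 to 7 and *Wars* from 9 to 4.

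Within mice, the fall on the deposited scale was seen in 4 of 5 animals. Deposited totals were 726797 to 871400 in HRS legs of m862 to m865 and 1142684 to 1252358 in their PBS legs. In m866 they were 1162004 and 958741. As a share of these totals, the members without *Lars2* were lower in the HRS leg of m862 (0.179% and 0.192%) and m863 (0.177% and 0.192%). They were higher in m864 (0.191% and 0.183%), m865 (0.187% and 0.185%) and m866 (0.188% and 0.187%). In m862, m863, m864 and m865, 38, 38, 37 and 40 of 41 members were lower in the HRS leg than in the PBS leg, where 47.3%, 47.9%, 44.6% and 45.6% of tested genes were. The median difference of the members was -0.55, -0.57, -0.56 and -0.46 on the log2 scale. The median over all tested genes in these mice was 0.05, 0.05, 0.14 and 0.10. In m866, 6 of 41 members were lower, where 34.1% of tested genes were, and the median difference of 0.20 was close to the 0.14 of all tested genes. Most of the family thus had the opposite sign in m866, at a distance from all genes that was small beside that in the other mice. Of the 41 members, 35 were lower in all of m862 to m865 (35.7% of tested genes), and 30 of these were higher in m866 (26.7% of tested genes). Muscle fibre markers showed the same split between mice: the median difference of the 8 markers was -0.98, -1.42, -2.11 and -1.50 in m862 to m865 and 0.43 in m866. Macrophage markers were higher in the HRS leg of all 5 mice, by 3.94, 3.55, 3.77 and 3.87 on the log2 scale in m862 to m865 and by 1.65 in m866. The part of these cell type markers in the fall of the synthetases was not tested.

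**Figure D4:**
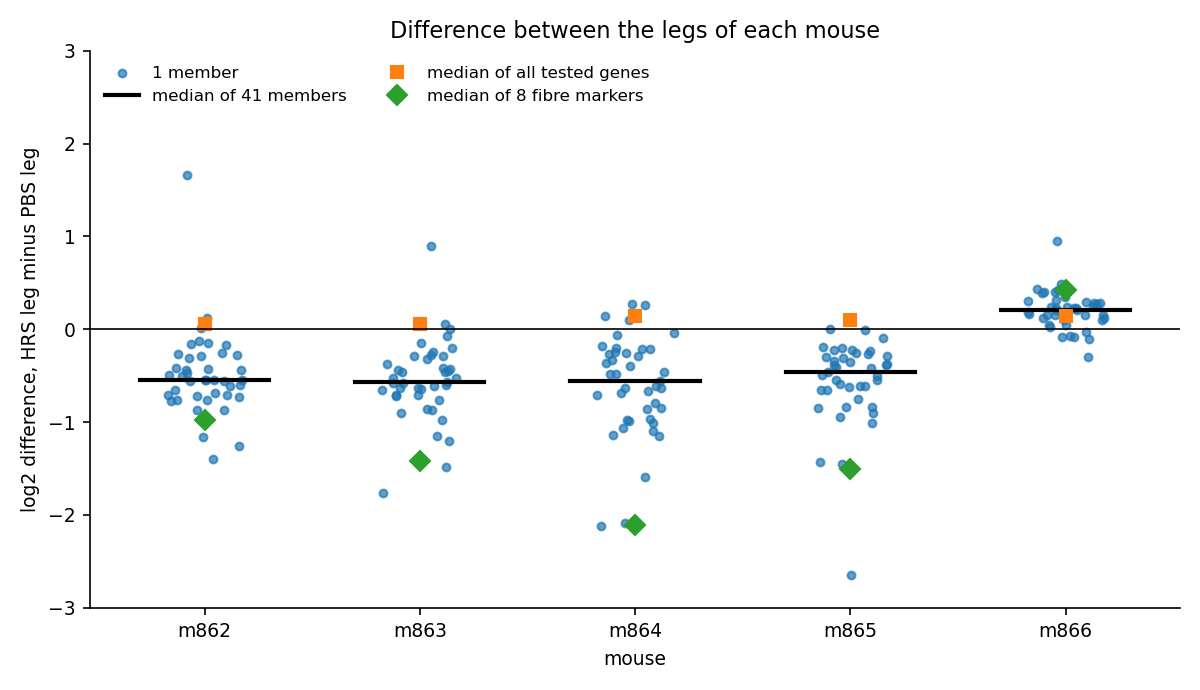
Log2 difference between the HRS leg and the PBS leg of each mouse, 1 point per member, with the median of the 41 members (bar), of all tested genes (square) and of 8 muscle fibre markers (diamond). On the deposited scale, most members and the fibre marker median lie below 0 in m862 to m865 and above 0 in m866. The members' median of 0.20 in m866 is close to the 0.14 of all tested genes.

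Without the HRS leg of m866, 31 members were called lower and 0 higher, where the shares of all tested genes also rose, to 30.2% lower and 38.2% higher. Fold changes of the members named above grew, to -1.56 for *Tarsl2*, -1.51 for *Aimp2*, -1.06 for *Mars1* and -0.88 for *Iars*. *Hars* remained at 0.06 (adjusted p = 0.58, limma), and *Hars2*, *Tars*, *Tars2* and *Rars* were then called lower. By role, 15 of 19 cytosolic synthetases, 12 of 17 mitochondrial synthetases, 1 of 2 genes for both compartments and 3 of 3 scaffold genes were lower. So were 8 of 8 complex enzymes, 6 of 9 antigen genes and 7 of 8 fibre markers. After this leg had been seen to stand apart, members whose other 4 HRS legs all lay below the 5 contralateral PBS legs were counted, and there were 30 of 41, where 24.5% of tested genes had that separation. With mouse as a block in the fit, which retains the HRS leg of m866 and its reversed differences, 10 members were called lower and 0 higher, where 16.2% of tested genes were called lower and 27.8% higher. These 10 were *Mars1*, *Aimp2*, *Fars2*, *Sars2*, *Tarsl2*, *Aars2*, *Iars2*, *Eprs*, *Yars* and *Vars2*. *Iars*, *Farsb*, *Aars* and *Nars* were not called with the block (adjusted p = 0.0589, 0.0589, 0.0738 and 0.127, limma).

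Cell type markers moved with these differences in HRS legs. Fibre markers were lower for 5 of 8 genes (median log2 fold change -1.14), and the markers tested for macrophages (8 genes), T cells (7), B and plasma cells (6), neutrophils (5) and fibroblasts (6) were all higher. Of 5 endothelial markers, 1 was higher and 1 lower. The T cell markers summed to 19.6 to 131 normalized counts in HRS legs and 1.63 to 3.37 in contralateral PBS legs. Fibre markers were called lower for 0 of 8 genes with mouse as a block. Under quantile normalization the fibre marker median was -0.23, nearer to 0 than the -0.54 of the members, so that which of the lists fell further depended on the scaling.

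Contralateral PBS legs were compared with PBS-only legs to ask whether the family differed in the PBS leg of a mouse that had received HRS. By limma, 0 members were called in either direction, where 0% of tested genes were called higher and 0.00609% lower. At an unadjusted p below 0.05 there were also 0 members, beside 902 of 16414 genes, or 5.5%. Log2 fold changes of the members ran from -0.19 for *Wars* to 0.27 for *Wars2*, and the median of 0.05 was close to the 0.07 of all tested genes. *Tarsl2* gave 67.4 to 113 normalized counts in contralateral PBS legs and 94.0 to 111 in PBS-only legs.

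Against PBS-only legs, 20 members were lower in HRS legs and 0 were higher, where 22.6% of tested genes were called lower and 38.1% higher (limma). Unadjusted p-values below 0.05 were found for 23 lower and 0 higher members, where 65% of tested genes passed. The HRS libraries are the same as in the comparison above. The median log2 fold change was -0.29, beside 0.15 over all tested genes. *Tarsl2* (-1.40), *Aimp2* (-1.26), *Mars1* (-0.78), *Iars* (-0.78) and *Eprs* (-0.75) had the largest falls, and 2 members passed a log2 fold change of -1, where 5.87% of tested genes did. *Hars* had the highest estimate, at 0.14 ± 0.09 (adjusted p = 0.196, limma). Scaled to a common total, 7 members were lower and 9 higher (median 0.09), beside 11.7% and 55.7% of tested genes (median 0.51). Averaging the legs within each PBS-only animal left 2 controls, and 11 members were then called lower, beside 14.4% of tested genes.

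HRS-MBP libraries showed a like picture against the same PBS-only legs, with 21 members lower and 0 higher, where 23.8% of tested genes were called lower and 33.2% higher (limma). Without adjustment 23 were lower and 0 higher at p below 0.05, where 62.5% of tested genes passed. The median was -0.38 on the log2 scale, beside 0.11 over all tested genes. *Tarsl2* (32.5 and 37.5 normalized counts) fell by 1.57, *Aimp2* (47.5 and 56.8) by 1.23, *Eprs* (133 and 144) by 0.95, *Aars2* (14.2 and 13.6) by 0.92 and *Aimp1* (35.6 and 38.8) by 0.87. Against the same legs, all macrophage (8), T cell (7) and B and plasma cell markers (6) were higher, with median log2 fold changes of 4.61, 4.32 and 3.93, and 2 of 8 fibre markers were lower (median -1.40). The part of these markers in the lower synthetase levels was not tested. Of the 5 named genes, 2 passed a log2 fold change of -1, where 10.2% of tested genes did. *Hars* was at 0.10 ± 0.12 (adjusted p = 0.469, limma), and *Lars2* had the highest estimate, at 0.72 ± 0.70 (adjusted p = 0.391, limma). With m860 or m861 left out, 9 members were called lower in either case, beside 13% of tested genes, the remaining library being assumed to vary like those of the other groups. Averaging the legs within each PBS-only animal left 14 members lower in HRS-MBP, beside 18.5% of tested genes. With libraries at a common total, 7 were lower and 8 higher (median 0.07), beside 12.4% and 47.1% of tested genes (median 0.53).

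Between HRS-MBP libraries and HRS legs, 0 members were called in either direction (limma), where 0.426% of tested genes were called higher and 0.134% lower, and 0.067% were lower by a log2 fold change above 1 in size. At an unadjusted p below 0.05 there was 1 member (14.4% of tested genes), *Ears2*, with 6.44 and 5.20 normalized counts in HRS-MBP and 7.16 to 9.504 in HRS legs (log2 fold change -0.43 ± 0.18, adjusted p = 0.298, limma). *Hars* differed by -0.04 ± 0.12. With 2 libraries in this group and the spread among HRS legs, smaller differences could not be resolved.

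The genes that work beside the synthetases were described by the same counts in HRS legs against contralateral PBS legs, to be read against the 35.1% of tested genes called higher and 25.9% called lower, or 27.8% and 16.2% with mouse as a block. Of 15 accessory genes of tRNA charging, 6 were lower and 2 higher. *Gatb*, *Gatc* and *Qrsl1*, which encode the mitochondrial amidotransferase that makes glutaminyl-tRNA, were all lower, at log2 fold changes of -0.63, -0.78 and -0.65. *Pstk*, a kinase on the way to selenocysteinyl-tRNA, was at -0.85. Of 9 mitochondrial translation factors, 7 were lower and 0 higher, led by the release factor *Mtrf1* (-1.001) and by *Gfm1* (-0.94), the elongation factor of translocation, and *Gfm2* (-0.86), a factor of ribosome recycling. With mouse as a block these were 5 lower and 1 higher accessory genes and 3 lower mitochondrial factors. On the common total, 4 accessory genes were lower and 7 higher, and 3 mitochondrial factors were lower and 1 higher, beside 12.4% of tested genes lower and 54.9% higher.

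Of 15 cytosolic translation factors, 7 were lower and 3 higher. The 2 forms of elongation factor eEF1A had opposite signs. *Eef1a2*, the form of mature muscle and neurons, had 1288 normalized counts on average in HRS legs and 2387 in contralateral PBS legs (log2 fold change -1.01, adjusted p = 0.00548, limma). *Eef1a1*, the form of most other cells, had 1664 and 544 (1.58, adjusted p = 0.000449, limma). *Eif4a1*, an RNA helicase of initiation, rose by 0.79 on the log2 scale. With mouse as a block, 1 factor was lower and 2 higher, and *Eef1a2* was not called (adjusted p = 0.0735, limma). Scaled to a common total, 6 were higher and 3 lower, beside 54.9% and 12.4% of all tested genes.

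Genes of the response to uncharged tRNA changed in both directions against contralateral PBS legs. Of 27 tested, 14 were higher and 5 lower (median log2 fold change 0.28), and with mouse as a block 10 were higher and 5 lower. Amino acid transporters and the stress cytokine *Gdf15* led the rises, with *Slc7a11* (cystine) at 2.96, *Gdf15* at 2.09 and *Slc7a5* (large neutral amino acids) at 1.74. Members on the lower side were *Atf4* itself (-0.60), *Atf5* (-0.44), *Psph* (-0.44), *Eif4ebp1* (-0.61) and *Chac1* (-1.52), a glutathione-degrading enzyme and known ATF4 target. Against PBS-only legs the same HRS legs gave 14 higher and 1 lower (median 0.56), beside 38.1% and 22.6% of tested genes. Of the 5 lower genes above only *Chac1* was called there (-1.48, adjusted p = 0.0139, limma), with *Atf4* at -0.33 (adjusted p = 0.0737, limma). The kinase gene *Eif2ak4* (GCN2) was at 0.28 (adjusted p = 0.0319, limma; 0.0898 with the block). Common-total scaling gave 17 higher and 1 lower, where 54.9% of all tested genes were higher and 12.4% lower. Quantile normalization gave 9 higher and 7 lower (median 0.085), beside 25.3% and 39.6% of tested genes.

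**Figure D5:**
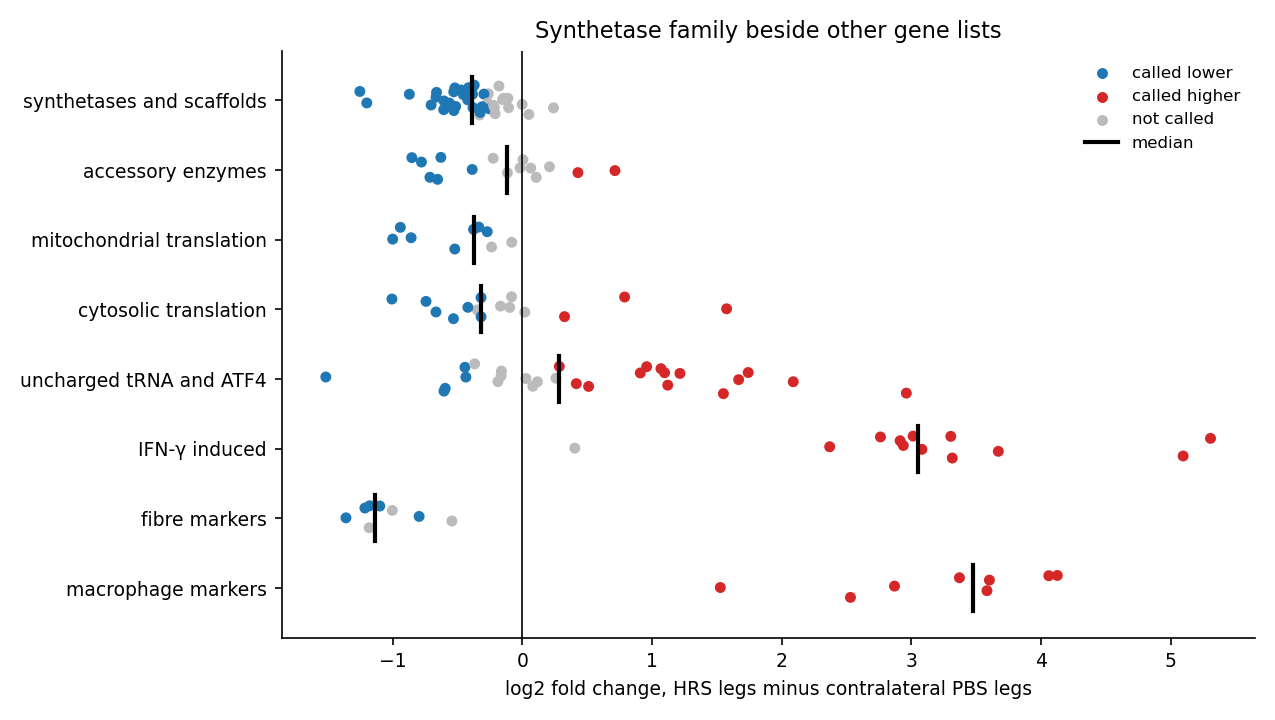
Log2 fold change of HRS legs against contralateral PBS legs for the 41 synthetase and scaffold genes and for 7 other gene lists, 1 point per gene, coloured by call, with the median as a bar. Most of the family (39 of 41) and the mitochondrial translation factors lie below 0 with 0 genes called higher, and the IFN-γ induced genes and macrophage markers lie far above it.

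Because several cytosolic synthetases are known ATF4 targets, the promoters of the members were searched for the C/EBP-ATF element TGATGNAA on both strands, in the 250 bases before and 50 after the start site given by RefSeq (GRCm38.p6). Entries were found for 31 of 41 members, *Hars* not among them. The element was present in 5 of these, or 16.1%, against 4.51% of 27025 genes with a promoter of the same length. These 5 are shown from 40 bases before to 25 after the start site, 5′ to 3′ on the strand of the gene, with the element in capitals (read as its reverse complement where it lies on the opposite strand). *Yars* (chr4:129189863-129189927, plus strand), *Iars* (chr13:49682090-49682154, plus strand) and *Aars* (chr8:111033802-111033866, plus strand) were lower in HRS legs, and *Gars* (chr6:55037961-55038025, plus strand) and *Tars* (chr15:11399634-11399698, minus strand) were not called.
Yars: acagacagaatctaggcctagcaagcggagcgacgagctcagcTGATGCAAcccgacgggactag
Iars: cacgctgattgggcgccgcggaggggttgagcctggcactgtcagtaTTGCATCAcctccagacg
Aars: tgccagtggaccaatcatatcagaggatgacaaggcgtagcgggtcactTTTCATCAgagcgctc
Gars: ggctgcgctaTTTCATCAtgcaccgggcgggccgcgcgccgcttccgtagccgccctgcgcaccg
Tars: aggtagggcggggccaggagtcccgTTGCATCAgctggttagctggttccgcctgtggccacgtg

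*Yars* carried the element in the direction of transcription, 4 to 11 bases after the start, and the others carried it on the opposite strand. *Aars* held a further match outside the printed stretch, 112 to 105 bases before the start. The 5 genes with the element had log2 fold changes between -0.70 and -0.11 in HRS legs against contralateral PBS legs on the deposited scale. The IFN-γ activated site TTCNNNGAA was found in 4 of 31 member promoters (12.9%, *Aars*, *Eef1e1*, *Kars* and *Nars2*) against 9.55% of all promoters. The interferon-stimulated response element (ISRE) was found in 1 (3.23%, *Qars*) against 3.99%. A match is a string of letters and no measure of binding.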

How the data were processed

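Hamstring RNA was poly(A)-selected and prepared with a directional kit. The submitters' processing notes name STAR 2.7.8a, limma and mm39/GRCm39. Gene coordinates in the table were those of GRCm38, however: 25652 of 26382 genes matched GENCODE M21 by symbol and chromosome, 99.0% of them with the same start and end. Values in the table were deposited by the authors as normalized counts, a linear signal per gene and library; how they were scaled is not given in the sources used here. Low values were whole multiples of 1 step in 75.1% to 77.5% of cases (tolerance 0.02 steps), so no count model was used and the step gave only an implied depth per library, lowest in a PBS-only library; its precision covers counting error alone. Which of 3 sequencing platforms each library was run on is not stated. No per-sample column was left unused.

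Tests were run on log2(normalized count + 0.5) where a gene averaged 0.5 or more over all libraries, with limma 3.58.1 in R 4.3.3 (4 groups in 1 fit, eBayes with trend). Adjusted p is Benjamini-Hochberg over 16414 genes, called below 0.05. Fold changes are on this log2 scale and understate changes of low genes. Single members were also compared by exact permutation. Legs of 1 mouse pair HRS and contralateral PBS libraries by the mouse labels; across genes their deviations correlated at 0.12, 0.16, 0.097, -0.026 and -0.37 in m862 to m866. Libraries of a group come from different mice except in PBS-only. The highest correlation between any 2 libraries was 0.9911, and none were merged. Members, gene lists and named genes (the 9 antigen genes, *Hars2*, the 5 largest called changes in each comparison and the 3 largest called genes of each list) were chosen with earlier results of these data known; *Wars*, *Vars*, *Lars2* and others were named after their values were seen. Alternatives covered the pseudocount, filter, scaling, variance model, block and each library left out; scaling to a common total and the count without 1 leg in the separation from PBS legs were added after the data were seen. Steps were tested on simulated data. Exon lengths and overlaps came from GENCODE M21. Single values of some genes are not reported here, and counts over lists include them.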

Additional observations from a re-analysis of the deposited data

Results flagged for a closer look

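Among 120 sets of 4 or 5 libraries (40 members in each of 3 groups), 12 had a library whose gap to its nearest neighbour was large for the range of its group, where chance flags about 1 set in 20. The HRS leg of m866 was high among HRS legs for 9 of these members: *Aars* (130 normalized counts), *Nars* (127), *Sars* (86.8), *Iars* (84.7), *Qars* (68.4), *Mars1* (64.0), *Yars* (55.8), *Eef1e1* (15.0) and *Yars2* (13.3). The contralateral PBS leg of the same mouse was low among contralateral PBS legs for *Iars* (60.1) and *Lars* (39.7). The contralateral PBS leg of m864 was low for *Nars2* (4.39).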

How the results depend on the processing

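Scaling mattered most. In HRS legs against contralateral PBS legs, the total without mitochondrial genes gave 5 members higher and 8 lower, beside 51.4% and 14.2% of tested genes. Its median was -0.047, and it turned *Hars2* (0.080), *Tars* (0.13), *Gars* (0.24), *Nars* (0.025) and *Farsa* (0.23). The common total over all genes, chosen after seeing the data, gave 8 and 7 with a median of 0.015, beside 54.9% and 12.4%. It put *Hars2* at 0.14, *Tars* at 0.19, *Aars* at 0.00024, *Gars* at 0.31, *Nars* at 0.090 and *Farsa* at 0.30. *Hars* turned to -0.026 with median-of-ratios factors and -0.044 with quantiles. Against PBS-only legs, the total without mitochondrial genes gave 5 higher and 12 lower (median 0.0024) for HRS legs, beside 51.2% and 14.4% of tested genes. For HRS-MBP it gave 6 and 8 (-0.016), beside 43.9% and 14.7%. The common total gave 9 and 7 (0.091), beside 55.7% and 11.7%, and 8 and 7 (0.072), beside 47.1% and 12.4%. Quantiles gave 34 lower for HRS legs, beside 38.9% of tested genes, and a median of -0.62 for HRS-MBP. The cause was not tested.

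With mouse as the replicate block 10 members were lower in HRS legs against contralateral PBS legs, beside 16.2% of tested genes. Averaged PBS-only legs, fewer samples by construction, gave 11 lower in HRS legs, beside 14.4%, and 14 in HRS-MBP, beside 18.5%. A fit of only the groups compared gave 1 member, *Wars*, higher in HRS-MBP against PBS-only legs, beside 33.4%. A fold rule left 2 lower in each of these 3 comparisons, beside 6.27%, 5.87% and 10.2%.

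Leaving out each library in turn gave 22 to 31 lower members for HRS legs against contralateral PBS legs (median -0.46 to -0.34), 14 to 27 against PBS-only legs (-0.38 to -0.22) and 9 to 25 for HRS-MBP against PBS-only legs (-0.43 to -0.36). The shares of all tested genes called lower moved too, over 21.1% to 30.2%, 18% to 27.4% and 13% to 26.6%. It gave 0 calls for contralateral PBS against PBS-only legs (0.0046 to 0.10) and for HRS-MBP against HRS legs (-0.13 to 0.0075). Of the counts and medians, 435 values under alternatives stayed close to the reported ones in the same direction, 24 moved and 4 turned. Group sizes of 2 to 5 limit what can be resolved.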
